A study of Mus musculus with 24 samples.

Results

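The genes described here are 10 genes of B cells and of the lymphoid aggregates in which B cells gather, out of 20728 named genes on the array. They were taken by name: Cd79a, Cd79b, Ms4a1, Blk, Cr2, Pou2af1 and Mzb1 as B cell and plasma cell genes, and Glycam1, Madcam1 and Chst4 as genes of the vessels through which lymphocytes enter lymphoid tissue. Each gene is represented by its array feature with the highest mean over all arrays, and all 10 were measured. RNA of whole lungs from C57BL/6 mice aged 9 to 12 weeks was hybridised to 24 one-colour Agilent arrays. Each animal was given either PBS or bleomycin, an antitumour antibiotic that injures lung tissue and is used to induce fibrosis, and in addition a gapmer, a chimeric antisense oligonucleotide through which RNase H cuts the matching RNA. The gapmer was a control, gapmer 1 or gapmer 3, of which the latter pair target the long noncoding RNA Dnm3os. There were 6 groups, with 3 arrays in each of the PBS groups and 5 in each of the bleomycin groups. Every group carried a gapmer, so no group shows lung without one. Not given in the sources used here are sex, dose, route and the time between treatment and sampling. Samples carry a number within their group but no animal is named, so the p-values reflect the variation among these samples, which may be technical.

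B cells sense antigen through a surface immunoglobulin that signals through the CD79A and CD79B chains, and activated B cells can become antibody-secreting plasma cells. In chronically inflamed lung, B and T cells can gather in aggregates that resemble lymph node tissue. Lymphocytes reach such tissue from the blood through high endothelial venules, whose lining carries sulfated mucin-like ligands for L-selectin and the addressin MAdCAM-1 for integrin alpha4beta7.

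Promoter sequence was held by the RefSeq table (build GRCm38.p6) for 6 of the 10 genes: Cd79a, Cr2, Pou2af1, Glycam1, Madcam1 and Chst4. Each window runs from 250 bases before the annotated start to 50 bases after it, written 5′ to 3′ on the gene's own strand. The windows of 4 genes are given because their levels differed most, in either direction, between bleomycin and PBS under the control gapmer: Glycam1 (chr15:103565032-103565331, minus strand), Madcam1 (chr10:79664309-79664608, plus strand), Cr2 (chr1:195176670-195176969, minus strand) and Chst4 (chr8:110039285-110039584, minus strand). Capitals mark matches to the core of a kappaB-type motif, which occur in the Madcam1 window.
Glycam1: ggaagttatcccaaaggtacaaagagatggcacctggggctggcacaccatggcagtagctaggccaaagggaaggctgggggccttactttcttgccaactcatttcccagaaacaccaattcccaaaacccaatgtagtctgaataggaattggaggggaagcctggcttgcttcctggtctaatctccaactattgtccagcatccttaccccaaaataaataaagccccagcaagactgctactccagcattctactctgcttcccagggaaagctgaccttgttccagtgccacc
Madcam1: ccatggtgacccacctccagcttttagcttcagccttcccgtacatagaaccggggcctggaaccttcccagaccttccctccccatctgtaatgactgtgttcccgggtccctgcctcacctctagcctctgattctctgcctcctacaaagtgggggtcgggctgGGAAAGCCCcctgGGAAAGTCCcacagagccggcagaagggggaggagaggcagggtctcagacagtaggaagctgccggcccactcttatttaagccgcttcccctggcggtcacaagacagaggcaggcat
Cr2: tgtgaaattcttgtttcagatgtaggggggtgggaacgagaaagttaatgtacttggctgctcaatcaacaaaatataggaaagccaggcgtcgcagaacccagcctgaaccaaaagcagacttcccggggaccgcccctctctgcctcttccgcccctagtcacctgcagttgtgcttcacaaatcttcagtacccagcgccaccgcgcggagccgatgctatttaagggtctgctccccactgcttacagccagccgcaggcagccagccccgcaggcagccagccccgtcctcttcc
Chst4: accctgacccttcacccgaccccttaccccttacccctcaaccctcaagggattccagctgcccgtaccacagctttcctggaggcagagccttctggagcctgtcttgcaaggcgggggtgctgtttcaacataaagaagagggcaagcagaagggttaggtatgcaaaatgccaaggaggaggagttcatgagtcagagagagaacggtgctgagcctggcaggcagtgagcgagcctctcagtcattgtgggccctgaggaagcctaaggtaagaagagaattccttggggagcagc

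A pair of motifs was searched on both strands of the 6 windows, chosen after the levels had been seen: the octamer ATGCAAAT, bound by the OCT factors that POU2AF1 assists, and GGAANNNCC, the core of a kappaB-type motif, which NF-kappaB factors bind. The Madcam1 window held the kappaB-type core at 2 places that do not overlap, GGAAAGCCC from position -83 and GGAAAGTCC from position -70 relative to the start, both on the plus strand. The Cd79a and Pou2af1 windows, not printed here, each held it at 1 place on the minus strand, and the windows of Glycam1, Cr2 and Chst4 held no match. None of the 6 windows held the octamer. Among all 32851 promoter windows in the table, 18.5% held the kappaB-type core and 1.74% the octamer. These matches describe letters in the windows only.

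Lung identity and the target RNA were checked first. The epithelial genes Sftpc and Scgb1a1 lay between 17.94 and 18.07 as group means in all 6 groups, on the log2 intensity scale used throughout, where values ran from 5.03 to 18.25. Both lay at the top of that scale, so these values mark lung tissue but cannot show equal amounts between groups. The target Dnm3os stood at 6.90 ± 0.17 in bleomycin lung under the control gapmer (SD, n = 5), at 6.18 ± 0.19 under gapmer 1 and at 6.40 ± 0.22 under gapmer 3. It was lower with gapmer 1 by -0.72 (limma adjusted p = 0.000186) and with gapmer 3 by -0.50 (limma adjusted p = 0.00293), and the gapmer 3 arrays overlapped the control-gapmer arrays. In PBS lung its differences of -0.45 with gapmer 1 and -0.25 with gapmer 3 did not pass (limma adjusted p = 0.0882 and 0.577). The Dnm3os feature was dim, with 28.5% of genes below its mean. 1 array stood apart: the third sample of the bleomycin group with the control gapmer had thymocyte genes far above every other array. Rag1, which opens antigen receptor genes for rearrangement, measured 10.22 there and between 5.56 and 5.65 on the other 4 arrays of its group. Dntt, which adds nucleotides at the joins, measured 11.56 there and between 7.27 and 7.44 on the same 4 arrays. The mean of 10 thymus genes was 8.19 on that array and at most 6.44 on the arrays of the other 5 groups. Results are given below with that array and, where a call or a count changes, without it. In PBS lung with gapmer 3, the second sample had Cd8a, a T cell co-receptor, at 12.45 against 7.68 and 7.56 on its group mates.

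Bleomycin under the control gapmer gave the highest mean of the 6 groups for 9 of the 10 genes, and the lowest for Chst4. Against PBS with the same gapmer, limma called 6 members higher (Cd79a, Ms4a1, Cr2, Mzb1, Glycam1 and Madcam1) and 1 lower (Chst4), where 14.5% of all genes tested were called higher and 19.3% lower. The median difference of the 10 genes was 0.49, against -0.02 for all genes tested. The arrays of these groups did not overlap, with bleomycin higher, for 7 members (15.1% of all genes did so). The members were called more often than genes at large, but they were chosen with earlier results of these data known. That excess may therefore partly reflect the choice. Bleomycin also moved so many genes that a call in itself sets none of them apart. In a whole-lung sample, fewer cells of a type and less RNA per cell cannot be told apart.

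**Figure D1:**
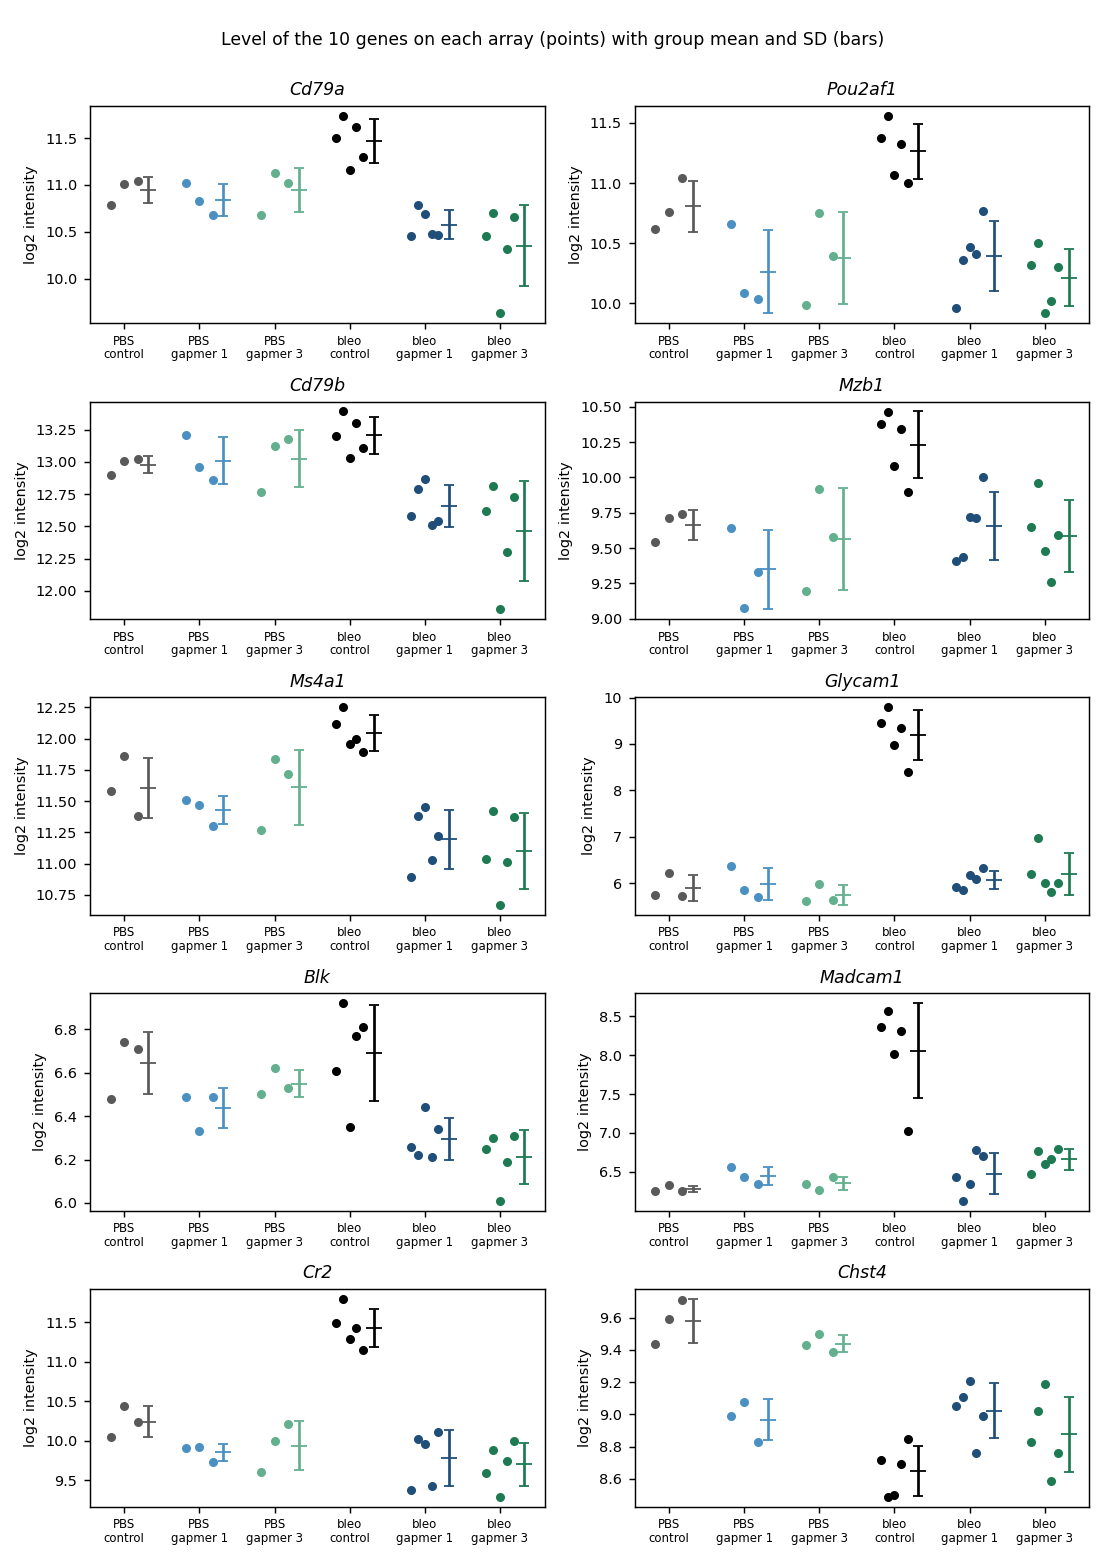
Log2 intensity of the 10 genes on each of the 24 arrays (points), with the group mean and SD (bars), for PBS and bleomycin combined with the control gapmer, gapmer 1 or gapmer 3; each panel has its own vertical range, which does not start at 0. The 5 control-gapmer bleomycin arrays lie between 8.40 and 9.79 for Glycam1, above every other array, whereas for Chst4 the same arrays lie between 8.49 and 8.85 and form the lowest group mean.

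Glycam1, which encodes a secreted mucin-like ligand of L-selectin, had the widest range. In PBS lung it measured 5.75, 6.21 and 5.72 with the control gapmer, 6.37, 5.85 and 5.71 with gapmer 1, and 5.61, 5.99 and 5.63 with gapmer 3. In bleomycin lung with the control gapmer it measured 9.46, 9.79, 8.98, 9.34 and 8.40. With gapmer 1 the bleomycin arrays read 5.91, 5.85, 6.17, 6.08 and 6.32, and with gapmer 3 they read 6.19, 6.97, 6.01, 5.81 and 6.01. Only the 5 control-gapmer bleomycin arrays were high, and the other 5 groups overlapped one another along the whole order of means. Glycam1 rose by 3.30 with bleomycin under the control gapmer (SE 0.26, 9.87-fold, limma adjusted p = 7.67e-09). In bleomycin lung it fell by 3.13 under gapmer 1 (SE 0.22, limma adjusted p = 5.48e-09), and under gapmer 3 it fell by 3.00 (SE 0.22, limma adjusted p = 1.26e-08); both comparisons share the control-gapmer arrays. The lower 25% of gene means ended at 6.11, and 4 of the 5 low group means of Glycam1 lay under that level, so these differences may understate the change in RNA.

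Madcam1 encodes the addressin MAdCAM-1, an adhesion molecule on the vessel wall. With PBS it measured 6.26, 6.33 and 6.26 under the control gapmer, and the 6 PBS arrays of gapmers 1 and 3 lay between 6.27 and 6.57. In bleomycin lung the control-gapmer arrays read 8.36, 8.57, 8.02, 8.31 and 7.03. The fifth of these stood closest to the remaining groups, yet lay above all of them: the gapmer 1 arrays read 6.43, 6.13, 6.35, 6.78 and 6.71, and the gapmer 3 arrays read 6.47, 6.77, 6.60, 6.67 and 6.79. Madcam1 rose by 1.77 with bleomycin (SE 0.22, 3.42-fold, limma adjusted p = 2.23e-06), and by 2.03 without the fifth control-gapmer array. In bleomycin lung it fell by 1.58 under gapmer 1 (SE 0.19, limma adjusted p = 1.92e-05), and under gapmer 3 it fell by 1.40 (SE 0.19, limma adjusted p = 4.98e-05). The second Madcam1 feature disagreed: it read 7.91 on the first control-gapmer bleomycin array but between 5.71 and 6.10 on the other 4, close to the 5.64 to 6.01 of the PBS arrays. The Madcam1 differences therefore rest on 1 of its 2 features.

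Chst4 encodes a sulfotransferase that adds the sulfate recognised by L-selectin on these ligands, and it moved the other way. It measured 9.44, 9.59 and 9.71 in PBS lung with the control gapmer, and 8.72, 8.49, 8.50, 8.69 and 8.85 after bleomycin with that gapmer. No array of the first group overlapped the second, and Chst4 fell by 0.93 (SE 0.12, limma adjusted p = 2.62e-06). In bleomycin lung with gapmer 1 it measured 9.05, 9.11, 9.21, 8.76 and 8.99, and with gapmer 3 it measured 8.83, 9.02, 9.19, 8.59 and 8.76. These ranges overlap that of the control gapmer; the gapmer 1 arrays were higher by 0.37 (SE 0.10, limma adjusted p = 0.0208), and the gapmer 3 arrays by 0.23 without passing the test (SE 0.10, limma adjusted p = 0.155). The gapmer 1 call was lost without the third control-gapmer array, the one with high thymocyte genes (0.34, limma adjusted p = 0.0608), and when the second control-gapmer array or the second or the third gapmer 1 array was left out (limma adjusted p = 0.0735, 0.0583 and 0.0698).

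Chst4 was also the sole member called in PBS lung. There it measured 8.99, 9.08 and 8.83 with gapmer 1, all below the control-gapmer arrays, and 9.43, 9.50 and 9.39 with gapmer 3. Under gapmer 1 it fell by 0.61 (SE 0.13, limma adjusted p = 0.0311), where 0.666% of all genes were called lower and 1.11% in either direction. This call was lost when any of 5 of the 6 arrays was left out, all but the second PBS control array (limma adjusted p between 0.0659 and 0.146), and when only the groups compared were fitted (limma adjusted p = 0.0609). With gapmer 3 in PBS lung limma called none of the 10 members, and none had an unadjusted p under 0.05. For all genes that comparison gave 0.0338% called, and 2022 genes with an unadjusted p under 0.05. The largest difference there was that of Pou2af1, at -0.43 with a 95% interval from -0.88 to 0.01.

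**Figure D2:**
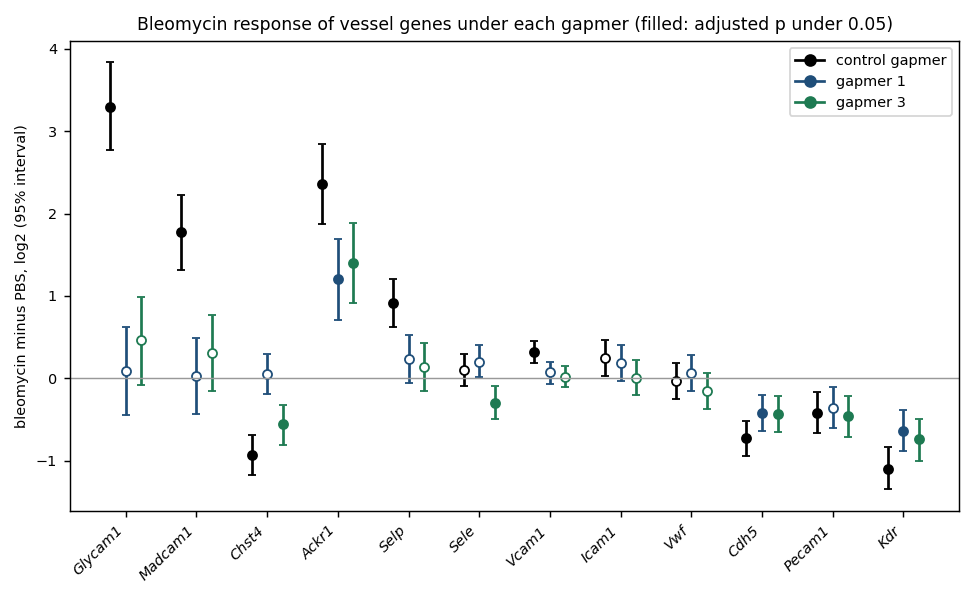
Bleomycin minus PBS difference (log2, limma, with 95% interval) under the control gapmer, gapmer 1 and gapmer 3. Shown are the 3 members taken by name as vessel genes and 9 endothelial genes. Filled points have an adjusted p under 0.05. Glycam1 reached 3.30 and Madcam1 1.77 under the control gapmer but 0.09 and 0.03 under gapmer 1, whereas Ackr1 was higher under all 3 gapmers and Kdr was lower under all 3.

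Other genes of the addressin pathway and of vessels were called in both directions. Of 13 measured genes of the addressin pathway (ligand scaffolds, glycosylation enzymes and the lymphocyte's own integrins), 6 were higher and 4 lower with bleomycin, with a median of 0.24, where 14.5% of all genes were called higher and 19.3% lower; without the third control-gapmer array 5 were higher and 2 lower. In bleomycin lung 4 of them were lower with gapmer 1 and none higher (5.08% and 5.46% of all genes), and 4 were lower with gapmer 3 and 1 higher (7.49% and 5.6% of all genes). Without the third control-gapmer array 3 were lower with gapmer 1, and the counts with gapmer 3 stayed at 4 and 1. The 4 of these genes with the smallest p under gapmer 1 were Itgb7 (-0.55, limma adjusted p = 0.00192) and Itga4 (-0.45, limma adjusted p = 0.00772), the chains of the integrin that binds MAdCAM-1, with Vcam1 (-0.20) and Gcnt1 (-0.34). Itgb7 and Itga4 are made by lymphocytes, Vcam1 is an adhesion molecule and Gcnt1 builds the sugar branch that carries L-selectin ligands. Of 6 venular and activated endothelial genes 3 rose with bleomycin and 3 fell with each gapmer: Ackr1, a chemokine receptor of venules, Selp, the platelet and endothelial selectin, and Vcam1. Vwf, the fourth by p, differed by -0.03, 0.06 and -0.01 in the same 3 comparisons.

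Ackr1 was called higher with bleomycin under all 3 gapmers. It rose by 2.36 with bleomycin under the control gapmer (SE 0.23, limma adjusted p = 1.52e-07), by 1.20 under gapmer 1 (limma adjusted p = 0.00216) and by 1.40 under gapmer 3 (limma adjusted p = 0.000291). Its bleomycin response differed between gapmer 1 and the control gapmer by -1.16 (limma adjusted p = 0.0363), and the difference with gapmer 3, -0.95, did not pass (limma adjusted p = 0.116). Glycam1 differed between bleomycin and PBS by 0.09 under gapmer 1 (95% interval -0.45 to 0.62) and by 0.46 under gapmer 3 (95% interval -0.08 to 0.99), and neither passed. The interval of Ackr1 under gapmer 3, from 0.91 to 1.89, overlaps that of Glycam1, and no test compared these genes. Madcam1 differed by 0.03 under gapmer 1 and by 0.31 under gapmer 3, and neither passed. All 8 pan-endothelial genes fell with bleomycin under the control gapmer, with a median of -0.51, while 1 (Tek, 0.39) was higher with gapmer 1 and 3 (Tek, Kdr and Tie1) with gapmer 3. Chst4 fell together with these genes, but its cell source in whole lung was not tested. Its log2 ratio to Cdh5, the endothelial cadherin, differed by -0.20 with bleomycin, by 0.25 with gapmer 1 and by -0.04 with gapmer 3. This ratio was chosen after the values had been seen, so these differences are a description with no test.

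Among the B cell members Cr2 moved most. It encodes complement receptor 2 and, from a longer transcript, receptor 1, which are found on mature B cells and on follicular dendritic cells. Cr2 measured 10.04, 10.44 and 10.24 in PBS lung with the control gapmer, and 11.49, 11.79, 11.29, 11.42 and 11.14 after bleomycin with that gapmer. In bleomycin lung it measured 9.37, 10.02, 9.96, 9.43 and 10.11 with gapmer 1, and 9.59, 9.88, 9.29, 9.74 and 9.99 with gapmer 3. The PBS arrays of both gapmers lay between 9.60 and 10.21. The bleomycin arrays with the control gapmer were thus apart from every other group, whose ranges overlapped their neighbours in the order of means. In PBS lung Cr2 also lay lower with gapmer 1 (-0.39, with no overlap of arrays) and gapmer 3 (-0.31). Neither of these differences passed (limma adjusted p = 0.352 and 0.656). Cr2 rose by 1.19 with bleomycin (SE 0.19, 2.28-fold, limma adjusted p = 3.42e-05) and fell by 1.65 under gapmer 1 (SE 0.16, limma adjusted p = 1.07e-06), and under gapmer 3 it fell by 1.73 (SE 0.16, limma adjusted p = 4e-07). Its second feature gave 1.05, -1.46 and -1.46 for the same comparisons.

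Cd79a and Cd79b encode the signalling chains of the B cell receptor. Cd79a measured 10.79, 11.01 and 11.04 in PBS lung with the control gapmer and 11.50, 11.74, 11.16, 11.62 and 11.30 after bleomycin. With gapmer 1 the bleomycin arrays read 10.45, 10.79, 10.69, 10.48 and 10.47, and with gapmer 3 they read 10.45, 10.70, 9.63, 10.31 and 10.66. Both gapmer groups lay wholly below the control-gapmer bleomycin arrays, and the third gapmer 3 array was the lowest of all. Cd79a rose by 0.52 with bleomycin (SE 0.18, limma adjusted p = 0.0324), a call that ended when any array of the compared groups was left out except the third and the fifth control-gapmer bleomycin arrays (limma adjusted p between 0.0545 and 0.128), or with the RNA integrity number in the fit (0.50, limma adjusted p = 0.0647). It fell by 0.89 under gapmer 1 (SE 0.16, limma adjusted p = 0.00102), and under gapmer 3 it fell by 1.11 (SE 0.16, limma adjusted p = 7.19e-05). Its second feature gave 0.39, -0.82 and -0.84.

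Cd79b, the partner chain, measured 12.98 ± 0.07 (SD, n = 3) in PBS lung with the control gapmer. After bleomycin its mean was 13.20 ± 0.15 under the control gapmer (SD, n = 5), 12.66 ± 0.16 under gapmer 1 and 12.46 ± 0.39 under gapmer 3. Its difference with bleomycin was 0.23 and did not pass (95% interval -0.11 to 0.56, limma adjusted p = 0.31), although no array overlapped. It fell by 0.55 with gapmer 1 (limma adjusted p = 0.0135) and by 0.74 with gapmer 3 (limma adjusted p = 0.00104).

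Ms4a1 encodes CD20, a B cell membrane protein. It lay between 11.38 and 11.86 in PBS lung with the control gapmer and between 11.89 and 12.25 after bleomycin, groups that just did not touch. With bleomycin it rose by 0.44 (SE 0.16, limma adjusted p = 0.0416), and this call was lost under 8 alternatives. Of these, 5 left out an array: the first or the third PBS array, or the first, the second or the fourth bleomycin array (limma adjusted p between 0.0565 and 0.216). The other alternatives were median centring (0.42, limma adjusted p = 0.0535), testing every feature and the RNA integrity number in the fit. In bleomycin lung Ms4a1 fell by 0.85 under gapmer 1 (SE 0.14, limma adjusted p = 0.000546), and under gapmer 3 it fell by 0.94 (SE 0.14, limma adjusted p = 0.00012), with no overlap of arrays in either comparison. Blk, a kinase of the Src family that acts downstream of the B cell receptor, was dim. Its group means lay between 6.21 and 6.69, and it differed by 0.05 with bleomycin (95% interval -0.17 to 0.26). It fell by 0.40 with gapmer 1 (limma adjusted p = 0.0058) and by 0.48 with gapmer 3 (limma adjusted p = 0.00096).

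Pou2af1 encodes a coactivator of OCT factors that is needed for germinal centre responses. It measured 10.62, 10.76 and 11.04 in PBS lung with the control gapmer and 11.37, 11.56, 11.07, 11.32 and 11.00 after bleomycin. The groups overlapped through the third PBS array and the fifth bleomycin array, and the difference of 0.46 did not pass (SE 0.19, limma adjusted p = 0.0716). It passed with array weights (0.59, limma adjusted p = 0.014), in a fit of only the groups compared (limma adjusted p = 0.0348) and without the fifth control-gapmer bleomycin array (0.52, limma adjusted p = 0.0451). It fell by 0.87 with gapmer 1 (limma adjusted p = 0.00174) and by 1.05 with gapmer 3 (limma adjusted p = 0.000196) in bleomycin lung. In PBS lung Pou2af1 also lay lower with gapmer 1 (-0.54) and gapmer 3 (-0.43), and neither difference passed (limma adjusted p = 0.185 and 0.523).

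Mzb1 encodes a chaperone of the endoplasmic reticulum in marginal zone B cells and plasma cells, and it is the member that the array covers best, with 10 features named by the same transcript. Its brightest feature measured 9.54, 9.71 and 9.74 in PBS lung with the control gapmer and 10.38, 10.46, 10.08, 10.34 and 9.90 after bleomycin. In bleomycin lung it measured 9.41, 9.44, 9.72, 9.71 and 10.00 with gapmer 1 and 9.65, 9.96, 9.48, 9.26 and 9.59 with gapmer 3. A single gapmer array in each group reached past the lowest control-gapmer array, and the other 4 did not. Mzb1 rose by 0.57 with bleomycin (SE 0.17, limma adjusted p = 0.0142) and fell by 0.58 under gapmer 1 (SE 0.15, limma adjusted p = 0.0163), and under gapmer 3 it fell by 0.64 (SE 0.15, limma adjusted p = 0.00615). In PBS lung it also lay lower with gapmer 1 (-0.31) and gapmer 3 (-0.10), and neither passed (limma adjusted p = 0.433 and 0.913). Its bleomycin response was not shown to differ with either gapmer. The bleomycin call ended without the first PBS array (0.51, limma adjusted p = 0.065). The gapmer 1 call ended without the second control-gapmer bleomycin array (limma adjusted p = 0.0605) or without the first or second gapmer 1 array (limma adjusted p = 0.0502 and 0.0533).

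The repeated features give the spread between spots beside the spread between samples. Within an array the 10 features differed with an SD of 0.06 to 0.18, and the SD between arrays of a group was 0.11 to 0.36. Across the 10 features the bleomycin difference ran from 0.45 to 0.71, that of gapmer 1 from -0.59 to -0.52 and that of gapmer 3 from -0.73 to -0.56. Every feature of Mzb1 thus gave the same signs. The features read the same transcript in the same samples, so this repeats the measurement and adds no samples.

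**Figure D3:**
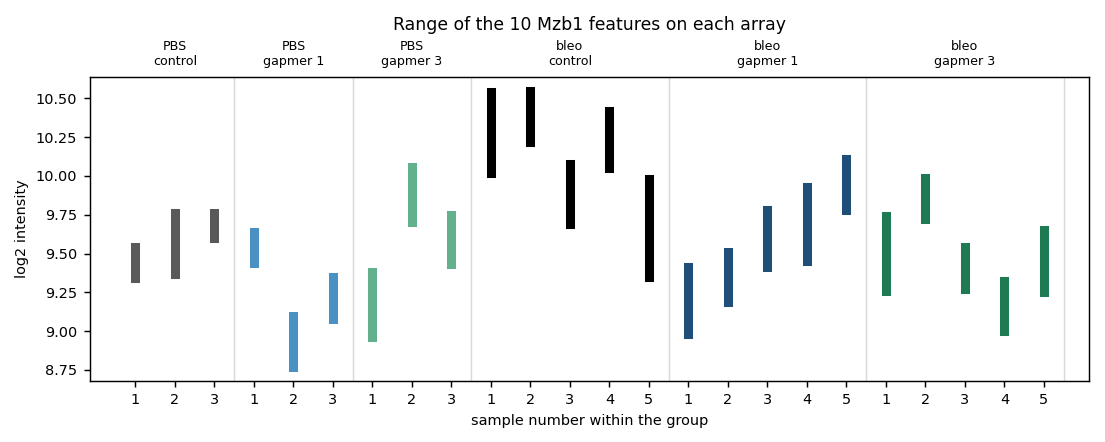
Range of the 10 Mzb1 features (log2 intensity, bar from the lowest to the highest feature) on each of the 24 arrays, ordered by group and sample number; the vertical axis does not start at 0. The bars of the control-gapmer bleomycin arrays lie highest as a group, and the SD of the features within an array was at most 0.18.

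In bleomycin lung limma called all 10 members with gapmer 1, 9 lower and 1 (Chst4) higher, where 5.08% of all genes were called lower and 5.46% higher. With gapmer 3 it called 9 members lower and none higher, where 7.49% of all genes were called lower and 5.6% higher. The median difference of the members was -0.86 with gapmer 1 and -1.0 with gapmer 3, against 0.02 and 0.01 for all genes. Arrays did not overlap, with the gapmer lower, for 7 members with gapmer 1 (3.41% of all genes) and for 8 with gapmer 3 (8.03% of all genes). Both comparisons use the same 5 control-gapmer arrays. Without the third of these arrays limma called 9 members with gapmer 1, Chst4 being lost, and 9 with gapmer 3. Between the 2 gapmers in bleomycin lung no member was called, none had an unadjusted p under 0.05, and limma called 0% of all genes, with 838 genes at an unadjusted p under 0.05. The widest 95% interval of that difference was that of Glycam1, from -0.33 to 0.60, and the difference of Cd79a was -0.22 (95% interval -0.55 to 0.10).

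**Figure D4:**
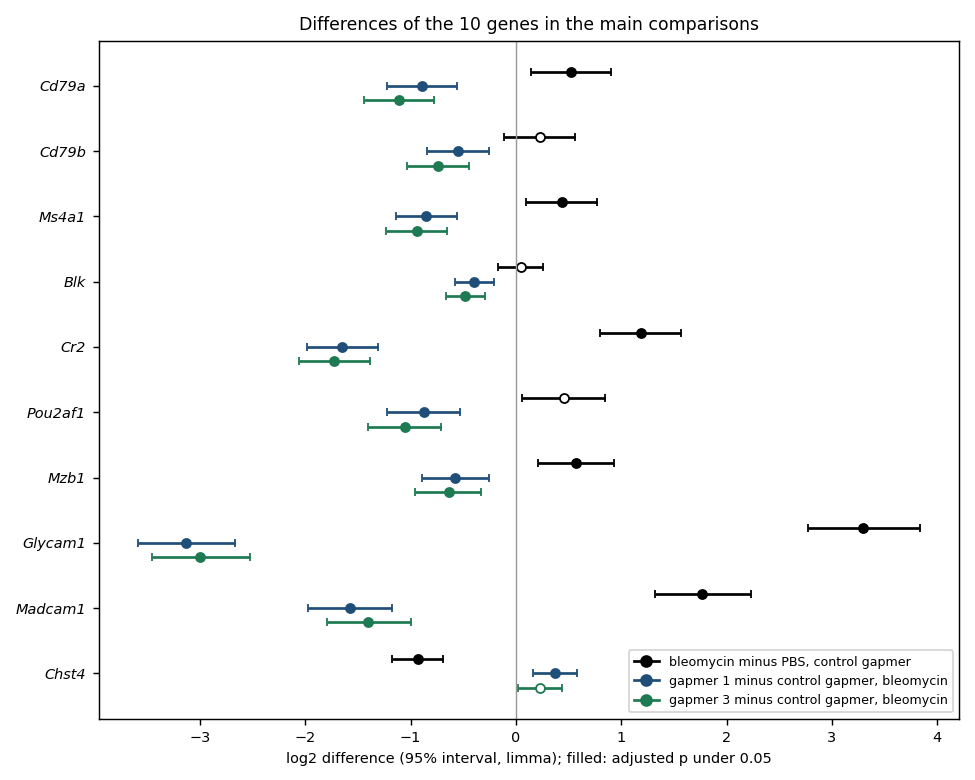
Log2 difference of each of the 10 genes (limma, with 95% interval) for bleomycin against PBS under the control gapmer and for each gapmer against the control gapmer in bleomycin lung; filled points have an adjusted p under 0.05. The comparisons share the control-gapmer bleomycin arrays, and 9 genes lie left of 0 with each gapmer, from -0.40 for Blk to -3.13 for Glycam1 with gapmer 1, while Chst4 lies at 0.37 and 0.23.

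Whether the response to bleomycin itself differed was tested by the interaction. With gapmer 1 the response was called smaller for Cr2 (-1.26, SE 0.26, limma adjusted p = 0.0081), Glycam1 (-3.22, SE 0.36, limma adjusted p = 2.77e-05) and Madcam1 (-1.74, SE 0.31, limma adjusted p = 0.00316), and less negative for Chst4 (0.99, SE 0.17, limma adjusted p = 0.00194). Among all genes 2.74% were called lower and 4.97% higher by this test. For Chst4 the larger part came from PBS lung, where gapmer 1 differed by -0.61, against 0.37 in bleomycin lung. Cd79a (-0.79), Cd79b (-0.58) and Ms4a1 (-0.67) did not pass with gapmer 1 (limma adjusted p = 0.0638, 0.121 and 0.0735), but did in a fit of only the groups compared (limma adjusted p = 0.0204, 0.0346 and 0.0441) and without the third bleomycin array of gapmer 3 (limma adjusted p = 0.0155, 0.0428 and 0.0485). With gapmer 3 it was called lower for 5 members (1.64% of all genes): Cd79a (-1.11, limma adjusted p = 0.0227), Ms4a1 (-0.94, limma adjusted p = 0.0275), Cr2 (-1.42, limma adjusted p = 0.00624), Glycam1 (-2.85, limma adjusted p = 0.000142) and Madcam1 (-1.47, limma adjusted p = 0.0147). The last of these did not pass when the mean of both Madcam1 features was used (-0.91, limma adjusted p = 0.0914). Cd79a lost its call without the first PBS control array or the second PBS array of gapmer 3, the one with high Cd8a (limma adjusted p = 0.0707 and 0.0615). Ms4a1 lost its call without any one of 5 arrays, namely the first or the third PBS control array, the second bleomycin array of the control gapmer, or the second or the third PBS array of gapmer 3 (limma adjusted p between 0.0569 and 0.0925). With the RNA integrity number in the fit Cd79a and Ms4a1 did not pass either (limma adjusted p = 0.0523 and 0.0542). Without the third control-gapmer bleomycin array 6 members were called, Blk being gained (-0.47, limma adjusted p = 0.0423). Cd79b (-0.79, limma adjusted p = 0.0604) passed under 4 alternatives, with array weights among them (-0.87, limma adjusted p = 0.0168). Pou2af1 did not pass with gapmer 1 (-0.33, limma adjusted p = 0.493) or gapmer 3 (-0.62, limma adjusted p = 0.217). Neither did Mzb1 (-0.26 and -0.55, limma adjusted p = 0.558 and 0.232). Blk, with all arrays in, did not pass either (-0.19 and -0.39, limma adjusted p = 0.451 and 0.148).

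Under gapmer 1 no member was called between bleomycin and PBS lung, 1 (Cd79b, -0.35) had an unadjusted p under 0.05, and limma called 9.46% of all genes. Under gapmer 3 limma called 5 members lower after bleomycin (6.85% of all genes): Cd79a (-0.59), Cd79b (-0.56), Ms4a1 (-0.50), Blk (-0.34) and Chst4 (-0.56). For 4 of the 5 this rests on few arrays. Without the fourth bleomycin array, or the second or the third PBS array, of gapmer 3 only Chst4 was called, and without the third bleomycin array, the lowest of its group in 6 of the 10 members, 2 were called. Cr2, Pou2af1, Mzb1, Glycam1 and Madcam1 differed by between -0.24 and 0.46 under gapmer 3 and did not pass. The Madcam1 arrays did not overlap, with bleomycin higher, and in a fit of only the groups compared Madcam1 was called higher (0.31, limma adjusted p = 0.0455), while Cd79a, Cd79b and Ms4a1 lost their calls.

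The differences of the members were of unequal size. The log2 ratio of Cr2 to Cd79a on the same array was 0.67 higher with bleomycin than with PBS under the control gapmer, at -0.04 ± 0.14 (SD, n = 5) against -0.70 ± 0.13 (SD, n = 3). In bleomycin lung it was -0.80 ± 0.29 with gapmer 1 and -0.65 ± 0.21 with gapmer 3 (SD, n = 5 each). The log2 ratio of Mzb1 to Cd79a was -1.28 ± 0.03 in PBS lung and -1.23 ± 0.13 after bleomycin under the control gapmer, and in bleomycin lung it was -0.92 ± 0.33 with gapmer 1 and -0.76 ± 0.37 with gapmer 3. These pairs were chosen after it was seen that their levels differed by unequal amounts, so the ratios are a description with no test, and the gapmer comparisons share their controls.

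Samples of a group also tended to be high or low across members. The second control-gapmer bleomycin array was the highest of its group in 9 of the 10 genes, and the fifth was the lowest in 6. The third control-gapmer bleomycin array, which carried the thymocyte genes, was the highest in none and the lowest in 3. With Glycam1 it measured 8.98 against a group median of 9.34, and with Cd79a 11.16 against 11.50. In the PBS group of gapmer 3 the first array was the lowest in 8 members.

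**Figure D5:**
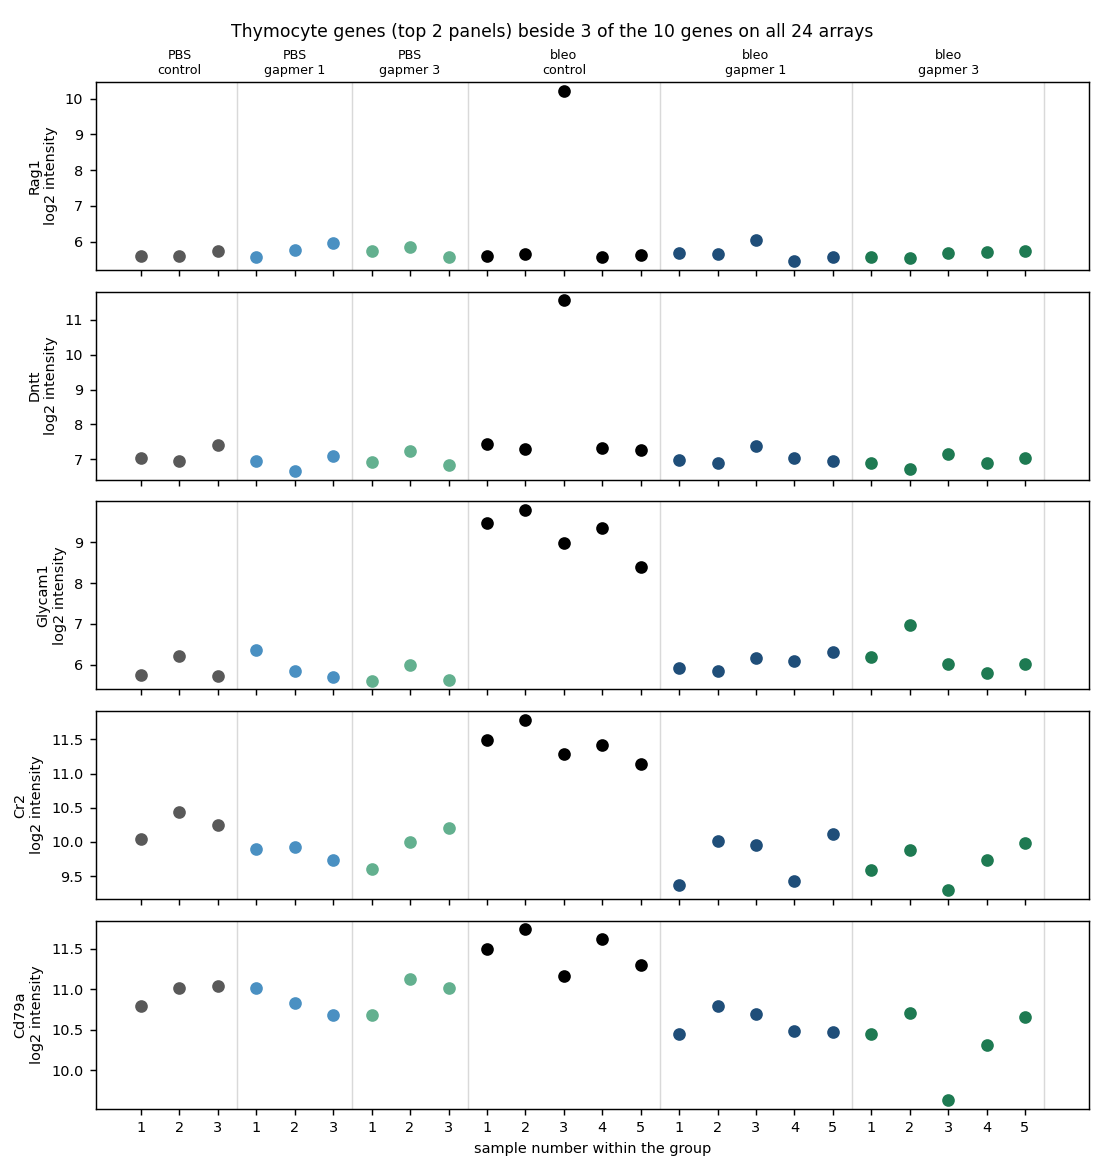
Log2 intensity on all 24 arrays, by group and sample number, of the thymocyte genes Rag1 and Dntt (upper panels) beside Glycam1, Cr2 and Cd79a; vertical axes do not start at 0. Rag1 reached 10.22 on the third control-gapmer bleomycin array alone, while Glycam1 and Cr2 were high on all 5 arrays of that group.

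Other B cell genes were called mostly in the directions of Cd79a. Of 22 listed genes 21 were measured, and with bleomycin under the control gapmer 14 were higher and 1 lower, with a median of 0.52 against -0.02 for all genes. For this and the following lists, the shares of all genes are 14.5% higher and 19.3% lower with bleomycin, 5.08% lower and 5.46% higher with gapmer 1, and 7.49% lower and 5.6% higher with gapmer 3. With each gapmer in bleomycin lung 19 of the 21 were lower and none higher, with medians of -0.69 and -0.81. Without the third control-gapmer array 15 were higher and 1 lower with bleomycin, and 19 were lower with either gapmer. Tnfrsf13c, the receptor for the survival factor BAFF, fell by 1.24 with gapmer 1 (limma adjusted p = 5.9e-06) and by 1.32 with gapmer 3 (limma adjusted p = 1.81e-06) after a rise of 0.57 with bleomycin. Fcrl1 fell by 0.76 and 0.87, Cd72, a co-receptor, by 1.02 and 1.12, and Cd83, an activation marker that dendritic cells also carry, by 0.58 and 0.60. Bleomycin raised Cd72 by 1.48 and Cd83 by 0.97. The list mean over its 21 genes ranged from 9.91 to 10.24 on the control-gapmer bleomycin arrays, from 9.28 to 9.50 with gapmer 1 and from 8.94 to 9.50 with gapmer 3.

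Of 14 plasma cell genes, 3 were higher (Irf4, Sdc1 and Tnfrsf13b) and 3 lower (Fkbp11, Herpud1 and Prdm1) with bleomycin (median 0.10), counts close to the shares of all genes, and 2 were lower with each gapmer. The 2 that fell with gapmer 1 were Tnfrsf13b, a receptor for BAFF and APRIL (-0.69, limma adjusted p = 0.000592), and Irf4, a transcription factor of activated lymphocytes and plasma cells (-0.55, limma adjusted p = 0.000612). Herpud1 and Creld2, of the endoplasmic reticulum stress response, differed by 0.28 and 0.15 and did not pass. Jchain, which joins secreted immunoglobulin into polymers, differed by -0.20 with gapmer 1 and -0.01 with gapmer 3 in bleomycin lung (95% intervals -1.12 to 0.72 and -0.93 to 0.91). Jchain rose with bleomycin by 1.70 under gapmer 1 (limma adjusted p = 0.0383) and 1.63 under gapmer 3 (limma adjusted p = 0.0355), with group SDs of up to 1.5 in PBS lung. Under the control gapmer its difference of 0.89 did not pass (limma adjusted p = 0.197), and neither interaction did (limma adjusted p = 0.54 and 0.651), so its response was not shown to differ between gapmers. It was chosen after its values were seen. Of 13 listed immunoglobulin genes only Igkc was measured, at a dim 5.85 to 6.06 as group means, and it was not called in any of these comparisons. Of 7 measured germinal centre genes, 1 (Bcl6, -0.47) was lower with bleomycin and 1 (S1pr2) was higher with each gapmer, by 0.43 and 0.37, while without the third control-gapmer array 1 was also higher with bleomycin; Mef2b and Rgs13, the other two by p, were not called.

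Of 17 measured chemokine, cytokine and receptor genes that organise lymphoid tissue, 13 were higher with bleomycin and none lower, with a median of 0.75. In bleomycin lung 10 of the 17 were lower with each gapmer, none was higher and 7 were not called, with medians of -0.52 and -0.49 against 0.02 and 0.01 for all genes. Without the third control-gapmer array 12 were higher with bleomycin, and 10 and 11 were lower with gapmers 1 and 3. Ccr6, a chemokine receptor of B cells and T cell subsets, rose by 1.36 and fell by 1.27 with gapmer 1 and 1.39 with gapmer 3 (limma adjusted p = 9.22e-07 and 1.74e-07). Icosl, the ligand of a T cell costimulator, Tnfsf11, which encodes RANKL, and Ccr7, a homing receptor, rose by 0.46, 0.75 and 0.61 and fell by 0.52, 0.64 and 0.82 with gapmer 1. Ccl19, a ligand of CCR7, rose by 1.67 and fell by 1.41 and 1.23 with the gapmers. Cxcl13, which draws B cells into follicles, rose by 1.39 with bleomycin (limma adjusted p = 0.0221), and its differences of -1.11 and -1.14 with the gapmers did not pass (limma adjusted p = 0.0775 and 0.0606). In PBS lung Cxcl13 also lay lower with the gapmers (-1.01 and -0.71), without a call. Its interactions were -0.10 and -0.43 (limma adjusted p = 0.951 and 0.791). Those of Ccl19 were -1.46 and -1.13 (limma adjusted p = 0.114 and 0.288). The bleomycin response of neither gene was thus shown to differ. Ccl19 and Cxcl13 were chosen after their values were seen.

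Other cell types are given beside these counts because their genes moved in the same comparisons, and their part in the results was not tested. Of 13 measured T cell genes 10 were higher with bleomycin, and 9 were lower with each gapmer; Cd3e, Lat, Cd6 and Cd3d led, and Cd3e fell by 0.86 and 0.97. The T cell list mean was between 9.30 and 10.05 on control-gapmer bleomycin arrays and between 8.69 and 9.03 on gapmer bleomycin arrays. The value of 10.05 came from the third control-gapmer array, the one with high thymocyte genes. All 5 pan-leukocyte genes rose with bleomycin and 3 fell with each gapmer, namely Cd52 (-0.49 with gapmer 1), Coro1a (-0.46) and Cd53 (-0.27), while Ptprc was not called. With gapmers 1 and 3 the median difference was -0.69 and -0.81 for the B cell list, -0.87 and -0.97 for the T cell list and -0.46 and -0.42 for the pan-leukocyte genes. Without the third control-gapmer array it was -0.75 and -0.84 for the B cell list and -0.79 and -0.87 for the T cell list. For the pan-leukocyte genes it was then -0.47 and -0.44. Of 6 follicular dendritic cell genes, 4 were higher and 1 lower with bleomycin, and with each gapmer only Fcer2a, which B cells also carry, was lower; Sox9, Cr1l and Mfge8 were not called with either gapmer. Of 6 lymphatic genes 3 were higher and 1 lower with bleomycin, and Mmrn1 was lower with gapmer 1 (-0.54), while Flt4, Prox1 and Lyve1 were not; without the third control-gapmer array none was lower with bleomycin and 1 was lower with each gapmer.

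Of 10 thymus genes 1 (Foxn1, 0.34) was called higher with bleomycin, and 1 (Themis, which T cells also express) was lower with each gapmer; without the array that carried them, none was higher, none was lower with gapmer 1 and 1 was lower with gapmer 3. Of 6 milk genes, listed because the mammary gland also secretes GlyCAM-1, 1 (Wap, 0.23) was higher with bleomycin and none was called with a gapmer; 5 of the 6 lay under 6.11 in all groups. Of 5 adipose genes all fell with bleomycin, with a median of -1.81, 1 (Cidec) rose with gapmer 1 and none was called with gapmer 3. Of 5 skeletal muscle genes 1 (Myh2) was lower with bleomycin and higher with gapmer 1, and their mean spread widely between arrays, from 6.74 to 11.86 in PBS lung with gapmer 3 and from 7.80 to 12.20 in bleomycin lung with gapmer 3. Of 5 lung epithelial genes 2 (Sftpa1 and Ager) were lower with bleomycin, the same 2 were higher with gapmer 1 and Sftpa1 was higher with gapmer 3. Without the third control-gapmer array no adipose or muscle gene and 1 epithelial gene was called with gapmer 1.

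Genes whose pattern lay closest to 3 members were found by the mean absolute difference over 24 arrays, with each gene taken relative to its PBS control mean. Closest to Cd79a were Cxcr5, the receptor of CXCL13 (0.12), Siglecg, an inhibitory lectin of B cells (0.12), and Gimap3 (0.13). Closest to Mzb1 were Csprs (0.10), Irf4 (0.15) and Map4k1 (0.15). Closest to Glycam1 were Spink8 (0.30), Mmp7, a matrix metalloproteinase made by injured epithelium (0.31), and Alox12e (0.34). In bleomycin lung with the control gapmer these last 3 lay above PBS control by 3.67, 3.52 and 2.91, with Glycam1 at 3.30. Under gapmer 1 the same distances were -0.06, -0.01 and 0.38, with Glycam1 at 0.17.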

How the data were processed

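Per the labels, total RNA extracted with TRIzol was labelled with Cy3 and hybridised to one-colour Agilent arrays, with RNA integrity numbers from 8.5 to 10. The authors deposited log2 intensities in 1 table of 62976 features; the submitters' processing notes name limma without saying for which step. Not given in the sources used here are its version, the normalisation and any filter. Array medians of 6.485 to 6.495 show that the deposited arrays are already on a common scale. Symbols came from the platform annotation, updated by accession or else by synonym. Of the features, 31465 had 1 symbol, and the other 31511 entered only the alternative in which every feature was tested. Mzb1 carries an older symbol in that annotation. The feature with the highest mean stood for each of 20728 genes, dim ones included.

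Contrasts were fitted by lmFit and eBayes of limma 3.58.1 under R 4.3.3, two-sided, over all 24 arrays at once with 6 group means, 18 residual and 3.26 prior degrees of freedom and a median residual SD of 0.14. A gene was called where its p, adjusted by Benjamini-Hochberg across the 20728 genes, was under 0.05. Precision is limited by the number of arrays. The fit was also tested on simulated data. Tables and figures were made with Python 3.11.15, pandas 2.3.3 and matplotlib 3.10.9.

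The members and the gene lists (other B cell, plasma cell, immunoglobulin, germinal centre, lymphoid organising, addressin pathway, venular, pan-endothelial, T cell, thymus, lymphatic, follicular dendritic cell, milk, pan-leukocyte, lung epithelial, skeletal muscle and adipose genes) were chosen with earlier results of these data known. Named from each list are up to 4 genes with the smallest p for gapmer 1 against the control gapmer in bleomycin lung; a gene named for another reason was chosen after its values were seen. Alternatives tried were median centring, a further quantile normalisation, removal of genes under 6.11, the mean of all features, every feature tested, other variance models, array weights, a fit of only the groups compared, RNA integrity as a covariate, a block for the replicate number, and each array left out. Leaving out the third control-gapmer bleomycin array for list counts, the ratios and the motifs were added after seeing the data; a longer form of the kappaB-type motif and an EBF1 motif were also searched and are not reported here.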

Additional observations from a re-analysis of the deposited data

Results flagged for a closer look

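The response to bleomycin differed between a Dnm3os gapmer and the control gapmer, by the interaction in limma, for the following members. With gapmer 1 the difference was -1.26 for Cr2, -3.22 for Glycam1, -1.74 for Madcam1 and 0.99 for Chst4. The value for Chst4 includes its lower level in PBS lung with gapmer 1 (-0.61). With gapmer 3 it was -1.11 for Cd79a, -0.94 for Ms4a1, -1.42 for Cr2, -2.85 for Glycam1 and -1.47 for Madcam1. Both sets use the same control-gapmer arrays. The gapmer 3 calls of Cd79a, Ms4a1 and Madcam1 were lost under some alternatives, as given above. Each member was also examined for an outlying array in each group of 5 arrays by Dixon's test, which sets the gap to the nearest array against the group's range. Of 30 such sets 0 passed its 95% critical value. Among those that did not are Madcam1 on the fifth control-gapmer bleomycin array, at 7.03 against 8.02 to 8.57 on the other 4, and Glycam1 on the second gapmer 3 bleomycin array, at 6.97 against 5.81 to 6.19.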

How the results depend on the processing

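No member changed direction in a called comparison under any alternative run. The count of members called was 9 in every setting for gapmer 3 in bleomycin lung and 0 in every setting for gapmer 3 in PBS lung, gapmer 3 against gapmer 1, and bleomycin under gapmer 1. Leaving out single arrays gave 4 to 8 for bleomycin under the control gapmer (4 without the first PBS control array), 8 to 10 for gapmer 1 in bleomycin lung, 0 to 1 for gapmer 1 in PBS lung, 4 to 7 for the difference in response with gapmer 1 (7 without the third bleomycin array of gapmer 3), 3 to 6 for that with gapmer 3 (3 without the first PBS control array or the second PBS array of gapmer 3) and 1 to 5 for bleomycin under gapmer 3. Fitting only the groups compared gave 0 for gapmer 1 in PBS lung, 7 for the difference with gapmer 1 and 3 (Blk, Chst4 and Madcam1) for bleomycin under gapmer 3, and the RNA integrity number in the fit gave 3 for the difference with gapmer 3; the cause was not tested. Deviations from the group means correlated between same-numbered samples with r from -0.24 to 0.42 (24 pairs, 9 over 0.1). Differently numbered samples were not compared, so these values cannot show whether the samples were paired. With the replicate block the counts were 7, 10 and 9 for bleomycin and for gapmers 1 and 3 in bleomycin lung. They were 1 and 0 for gapmers 1 and 3 in PBS lung, and 5 and 5 for the differences in response. For bleomycin under gapmer 3 the count was 5, and the remaining counts were 0. Across settings the number of calls over the whole array ran from 5695 to 12563 for bleomycin. It ran from 1209 to 4231 for gapmer 1 and from 1775 to 5121 for gapmer 3 in bleomycin lung. In PBS lung it ran from 10 to 732 and from 1 to 30 for gapmers 1 and 3. For bleomycin under gapmers 1 and 3 it ran from 485 to 3015 and from 1986 to 4769. For the differences in response it ran from 802 to 3251 and from 246 to 1763. The setting that tested every feature counts array features and the others count genes, so the upper ends may be counts of features. Signal near background limits Glycam1, Madcam1 and Blk.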
